A study of Mus musculus with 33 samples.

Results

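The collagen chain genes were taken as every row of the deposited mouse table whose symbol is Col, a type number, the letter a and a chain number, with nothing after it. This rule found 44 genes among the 41565 named rows of the table, which held 42824 rows in all. It used no measured value. Each of the 44 symbols matched a protein-coding gene in the GENCODE annotation, and the genes lay on 15 chromosomes.

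The libraries came from wild-type female C57BL/6 mice whose ovaries were both removed (ovariectomy, OVX) at 3 to 4 months of age, a mouse model of estrogen loss. Bulk RNA was sequenced from 2 dissected pieces of hypothalamus, the posterior hypothalamus (PH) and the preoptic area (POA), in 33 libraries. PH had 4 intact libraries, 6 from 14 days after OVX and 6 from 4 months after OVX, and POA had 5, 6 and 6. The intact females were collected in diestrus; the sample titles call them sham, while another label and the study's methods call them intact, and no sham operation is described. OVX removes all ovarian hormones at once and not estrogen alone. The 4-month mice were also older than both other groups at collection, with no intact group of their age, so time since OVX and age cannot be told apart. The sources do not state which libraries share an animal, and p-values measure the spread between these libraries.

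Values are the normalized signal as deposited, on a linear scale. The lowest genes pile up at a level of 22.1, called the floor here: the median of 23.7% of genes lay within 2% of it. The floor is no lower limit of the table, since 0.118% of values lay more than 10% below it, down to 9.94, but every collagen chain value was above it. Levels in PH and POA cannot be set against each other, because the deposited values carry almost no difference between the regions: the median absolute difference of region means was 0.0479 on the log2 scale over all genes tested, and no collagen chain gene exceeded 0.169. All comparisons below are therefore within a region, or compare the effect of OVX between the regions. A pair of libraries stood apart. The 14-day PH library numbered 5 had a summed signal of 72900000, against 44500000 to 54500000 in the others, and held the lowest of all 33 values for 22.1% of genes and the highest for 21.7%. The 14-day POA library numbered 6 had the highest leptomeningeal, ependymal and lowest neuronal marker levels. Markers of neurons, astrocytes, oligodendrocytes and microglia were all far above the floor in every library, with mean log2 signals of at least 9.79, while 6 of 8 pituitary markers lay near it in the median library. The mean log2 signal of the pituitary markers was uneven between groups, from 5.19 to 6.89 in intact POA, 5.38 to 8.44 at 14 days and 5.02 to 5.57 at 4 months, with no marker called and its part in the collagen values not tested. No file here gives read totals, so the depth behind each value is unknown.

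Collagens are triple helices of 3 chains, wound from 1 kind of chain or from several kinds encoded by separate genes. Fibrillar collagens such as types I and III form the cables of connective tissue. Type IV forms the network of basement membranes, which in the brain lines blood vessels and the pial surface, and type VI forms beaded filaments. Fibril-associated collagens (FACITs) coat fibrils, transmembrane collagens are anchored in the cell membrane, and multiplexins (types XV and XVIII) sit in vascular basement membranes. Brain tissue itself holds little fibrillar collagen, which is mostly made by fibroblasts of the meninges and around vessels, whereas type IV chains are made by endothelial cells and pericytes. By these types the 44 genes were 11 fibrillar, 9 FACIT, 6 basement membrane, 6 beaded filament, 4 transmembrane and 2 multiplexin chains, and 6 of anchoring fibrils, short chain networks or other assemblies.

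Chains of 1 protein often lie side by side. In the GENCODE annotation of the mouse genome mm39, 15 of the 44 genes formed 8 neighbour pairs less than 100000 bases apart. Col4a1 (chr8:11248423-11362826, minus strand) and Col4a2 (chr8:11362471-11499287, plus strand), the chains of the common type IV network, are transcribed away from each other and their annotated genes overlap by 356 bases at the 5′ ends. Col4a4 (chr1:82426144-82564800, minus strand) and Col4a3 (chr1:82564642-82699780, plus strand) share the same layout with an overlap of 159 bases, and Col4a6 and Col4a5 on chromosome X lie 1281 bases apart. Col6a6, Col6a5 and Col6a4, the alternative chains of type VI, follow each other on the minus strand of chromosome 9. The study's library kit keeps the strand of the RNA, which reads from such overlaps need; whether the quantification used it is not given in the sources used here.

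Promoter windows are shown for the head-to-head type IV pair, because its chains start close together. They are also shown for Col1a2, Col3a1 and the type VIII chains, a part of the other chains whose covariation is described further on. They run from 250 bases before to 50 bases after the RefSeq start in the build GRCm38.p6, which differs from the build of the gene positions above. Capitals mark every copy, on either strand, of the CCAAT box. They also mark the GC box, searched as GGGCGG. The TATA box, searched as TATAAA, is marked as well. The windows are Col4a1 (chr8:11312777-11313076, minus strand), Col4a2 (chr8:11312555-11312854, plus), Col1a2 (chr6:4505368-4505667, plus), Col3a1 (chr1:45311288-45311587, plus), Col8a1 (chr16:57754688-57754987, minus) and Col8a2 (chr4:126286544-126286843, plus), each written 5′ to 3′ on the strand of the gene.
Col4a1: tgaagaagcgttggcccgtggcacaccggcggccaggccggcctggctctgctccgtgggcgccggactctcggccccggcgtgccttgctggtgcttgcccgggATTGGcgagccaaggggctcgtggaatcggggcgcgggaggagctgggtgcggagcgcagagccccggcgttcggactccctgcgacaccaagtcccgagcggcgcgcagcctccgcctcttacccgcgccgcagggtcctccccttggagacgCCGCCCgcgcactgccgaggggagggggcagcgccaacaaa
Col4a2: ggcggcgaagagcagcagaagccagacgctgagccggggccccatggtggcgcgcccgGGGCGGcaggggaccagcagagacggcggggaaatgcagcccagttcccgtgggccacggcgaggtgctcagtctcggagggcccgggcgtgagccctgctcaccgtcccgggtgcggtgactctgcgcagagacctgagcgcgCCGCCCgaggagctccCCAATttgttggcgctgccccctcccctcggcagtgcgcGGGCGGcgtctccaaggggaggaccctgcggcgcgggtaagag
Col1a2: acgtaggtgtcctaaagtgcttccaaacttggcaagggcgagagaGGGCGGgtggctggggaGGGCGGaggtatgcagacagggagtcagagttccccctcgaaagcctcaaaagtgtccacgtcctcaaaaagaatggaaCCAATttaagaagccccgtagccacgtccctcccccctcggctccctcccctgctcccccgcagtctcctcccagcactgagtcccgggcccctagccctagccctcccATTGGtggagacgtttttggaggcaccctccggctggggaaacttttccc
Col3a1: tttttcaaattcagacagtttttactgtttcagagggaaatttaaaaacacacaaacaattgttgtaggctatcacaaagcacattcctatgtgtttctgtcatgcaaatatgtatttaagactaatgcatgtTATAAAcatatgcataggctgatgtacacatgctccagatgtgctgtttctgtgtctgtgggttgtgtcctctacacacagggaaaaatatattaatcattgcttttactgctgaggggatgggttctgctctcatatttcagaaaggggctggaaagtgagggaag
Col8a1: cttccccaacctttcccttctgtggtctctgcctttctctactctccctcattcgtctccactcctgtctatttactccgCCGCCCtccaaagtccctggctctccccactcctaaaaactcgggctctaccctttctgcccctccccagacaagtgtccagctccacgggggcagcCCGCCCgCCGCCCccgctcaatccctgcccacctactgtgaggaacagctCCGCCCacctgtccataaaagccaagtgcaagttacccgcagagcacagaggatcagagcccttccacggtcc
Col8a2: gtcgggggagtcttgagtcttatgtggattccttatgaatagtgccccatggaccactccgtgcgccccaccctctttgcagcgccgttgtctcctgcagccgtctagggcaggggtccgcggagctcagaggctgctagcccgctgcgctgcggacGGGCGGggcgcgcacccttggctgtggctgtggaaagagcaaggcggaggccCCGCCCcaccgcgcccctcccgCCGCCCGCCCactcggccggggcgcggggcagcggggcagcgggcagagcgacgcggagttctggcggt
The starts of Col4a1 and Col4a2 are 21 bases apart, and their windows share 78 bases read in opposite directions, so the motif copies in that stretch are counted in both. Col1a2 held 2 CCAAT and 2 GGGCGG copies, Col8a1 and Col8a2 each held 4 GGGCGG copies (in Col8a2 1 pair of copies overlaps), and Col3a1 held TATAAA but neither of the others. Windows were found for 35 of the 44 genes, 38 windows in all; Col12a1, Col14a1, Col1a1, Col22a1, Col26a1, Col2a1, Col4a3, Col5a2 and Col9a3 were without one. GGGCGG was present in 60.5% of these 38 against 35.7% of all 32851 RefSeq windows, CCAAT in 34.2% against 37.4%, and TATAAA in 13.2% against 13.6%. These shares are descriptions of letters, with no test.

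Nearly all collagen chains were detected, over a wide range of levels. Of the 44 genes, 41 had at least 2 times the floor (44.3) in all 33 libraries. Col10a1, the collagen of hypertrophic cartilage, lay nearest the floor, between 22.97 and 51.66, and reached 44.3 in 5 of 33 libraries. It was the 1 chain left out of the fits of both regions. Col17a1, an epithelial hemidesmosome collagen, ran from 29.92 to 227.9 and reached 44.3 in 22 libraries. Col28a1, a collagen of peripheral nerve, ran from 40.39 to 185.3 and reached it in 32. Another 7 genes (Col13a1, Col6a6, Col7a1, Col4a6, Col9a1, Col22a1 and Col4a3) had their lowest library between 45.17 and 55.47, close above this limit. Col13a1, Col6a6, Col9a1, Col22a1 and Col4a3 also had medians below 100.

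**Figure D1:**
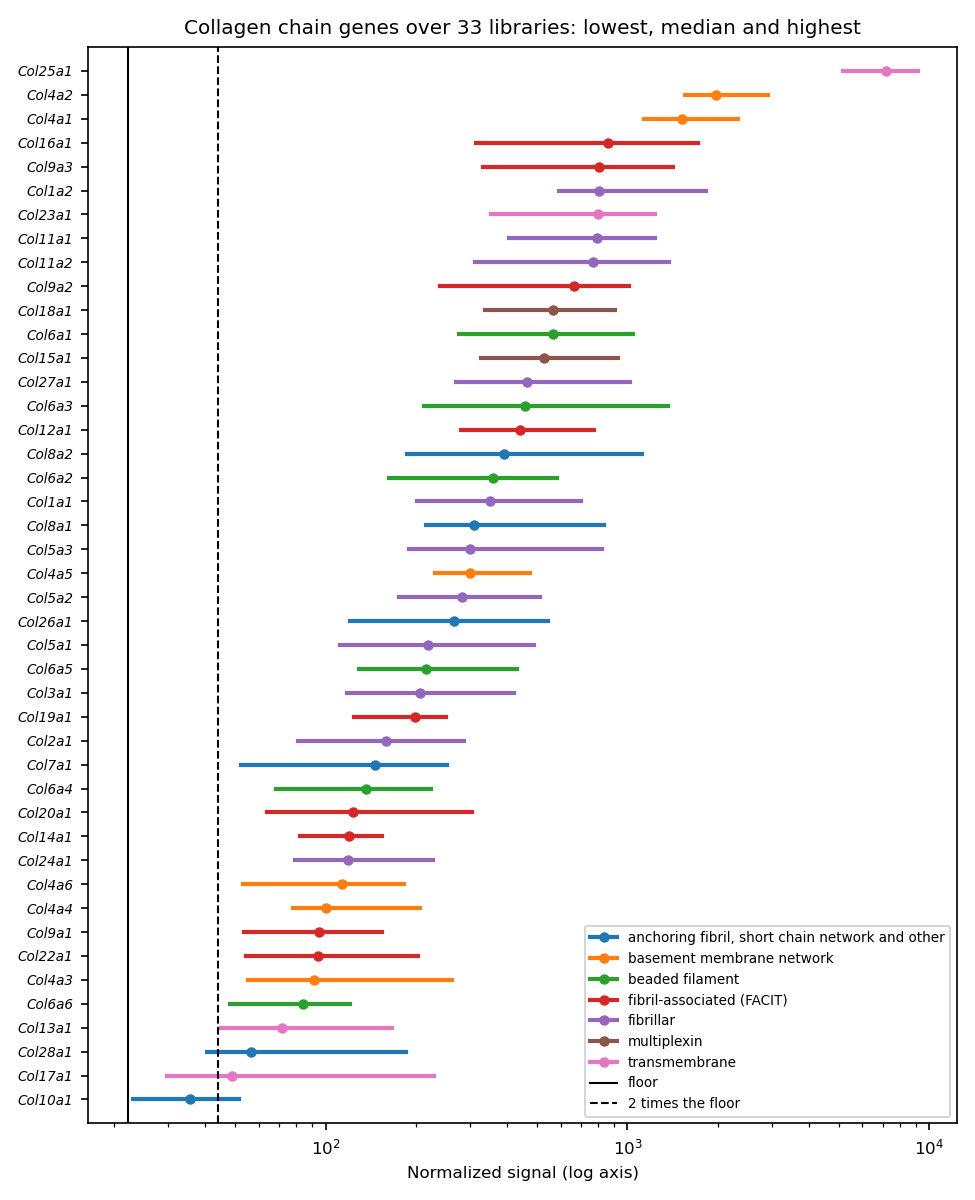
Normalized signal (log axis) of the 44 collagen chain genes over the 33 libraries, with the bar from the lowest to the highest library, the point at the median and colour for the collagen type. Col25a1 stands alone between 5167 and 9130, and Col10a1 lies at the floor of 22.1 (solid line) and about 2 times the floor (dashed line).

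The highest chain was a neuronal one. Col25a1, a transmembrane collagen of neurons known from amyloid plaques, had a median signal of 7193 and ran from 5167 to 9130. Levels between genes were compared as signal above the floor per kilobase of the longest coding transcript. On this scale Col25a1 ran from 767 to 1360 per kilobase, and its lowest library was above the highest library of every other chain. Next came Col4a2 with a median of 287 per kilobase (227 to 430), Col9a3 with 256 (102 to 457), Col4a1 with 226 (168 to 348) and Col9a2 with 220 (74.3 to 338), and these 4 overlapped one another. The FACIT Col16a1 (147), the type I chain Col1a2 (143) and the type VI chain Col6a1 (133) followed. Col1a1, the more numerous chain of the type I helix, had a median of 55.3 per kilobase (30 to 114) against 105 to 331 for Col1a2, so the ranges overlapped only at their ends. Col3a1, the chain of the thinner type III fibrils, had 32.5 per kilobase (17 to 70.2). The annotated transcript lengths enter all these values.

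Collagen chains differed between libraries of the same group more than genes did in general. The standard deviation within groups had a median of 0.411 on the log2 scale over the 43 chains tested in a region, against 0.246 over all 22100 genes tested in either region. It ran from 0.198 for Col25a1 to 0.708 for Col17a1. The fits had correspondingly wider errors: the median standard error of a log2 fold change at 4 months was 0.196 in PH and 0.192 in POA for the chains, and 0.137 and 0.109 for all genes. The pair of libraries named above held many of the extreme values. The 14-day POA library numbered 6 held the highest of the 33 values for 17 of the 44 chains (38.6%), whereas it held the highest value for 7.41% of all 22978 genes. The 14-day PH library numbered 5 held the lowest value for 16 of the 44 (36.4%), against 22.1% of all genes.

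The comparison of intact with ovariectomized females asks whether collagen expression changed after estrogen loss, and no chain passed the test at either time in either region. Expression was tested with limma on log2 signal, with 1 surrogate variable (SV1) as covariate and Benjamini-Hochberg adjustment over all genes of the region. In PH SV1 mainly set 1 library apart, with 0.785 in the 14-day library numbered 5 and −0.311 to 0.195 in the others. In POA it followed the 2 batches of the labels, with 0.186 to 0.352 in batch 1 and −0.322 to −0.125 in batch 2. Calls below mean an adjusted P under 0.05. In PH, 0 of 43 chains were called at 14 days, where 0% of 21958 genes were, and 0 of 43 at 4 months, where 0.0319% were. In POA, 0 of 43 were called at 14 days against 0.00469% of 21329 genes, and 0 of 43 at 4 months against 0.0938%. Between 4 months and 14 days, 0 of 43 were called in PH (0.00911% of all genes) and 0 of 43 in POA (0.0281%). The study's own DESeq2 analysis, also with SV1, reported more changed genes in each of these comparisons. Whether collagen chains were among them was not examined. The smallest adjusted P of any chain in these limma fits was 0.527, for Col9a2 at 4 months in POA. The comparisons within a region share libraries, so their counts are not independent.

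The counts at an unadjusted P below 0.05 stood beside those of all genes as follows. In PH, 2 of 43 chains (4.65%) met it at 14 days against 3.04% of all genes, 3 (6.98%) at 4 months against 6.06%, and 2 between 4 months and 14 days against 4.09%. In POA, 2 met it at 14 days against 6.13%, 2 at 4 months against 8.5%, and 2 between the times against 5.11%. The median log2 fold change of the chains at 14 days was 0.0491 in PH and 0.0746 in POA, beside −0.0018 and −0.0059 for all genes. At 4 months it was −0.0124 in PH and 0.0125 in POA, beside −0.0094 and −0.0106. The signs of these 4 medians are not firm, since leaving out single libraries moved each of them across 0. The ranges were −0.0409 to 0.0642 in PH and −0.0777 to 0.1288 in POA at 14 days, and −0.0802 to 0.0302 and −0.0255 to 0.0781 at 4 months. The 14-day median was −0.0409 in PH without the 14-day library numbered 1 and −0.0777 in POA without the one numbered 6.

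**Figure D2:**
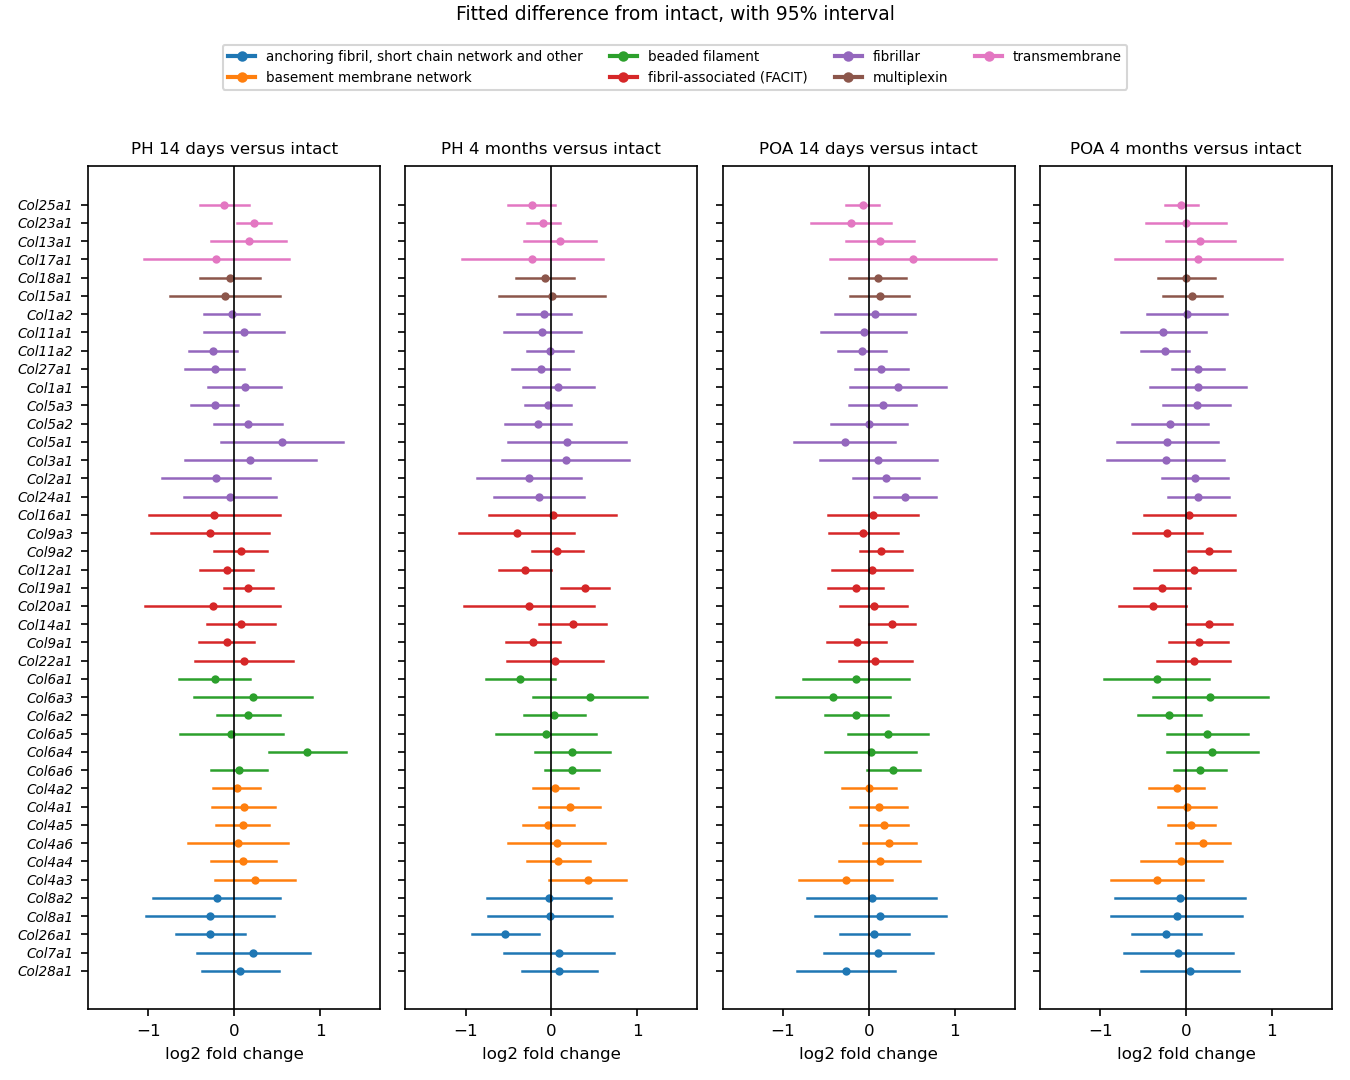
Fitted log2 fold change from intact (points) with its 95% interval (bars) for the 43 collagen chain genes tested, in PH and POA at 14 days and 4 months, coloured by collagen type. Most intervals cross 0; the fitted values run from −0.54 (Col26a1, PH, 4 months) to 0.85 (Col6a4, PH, 14 days).

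By type, the fibrillar chains were split in direction. In PH, 5 of 11 had a fitted difference above 0 at 14 days and 3 of 11 at 4 months. In POA the counts were 8 of 11 and 6 of 11. Over all genes 49.4% and 47.1% lay above 0 in PH and 47.8% and 46.5% in POA. Over all types, 29 of the 43 chains lay above 0 in POA at 14 days, and 12 of 43 in POA between 4 months and 14 days (48.9% of all genes), 2 counts that share the 14-day libraries. Both counts rested on library 6 of the 14-day group: without it they were 15 of 43 and 20 of 43, and the median between the times went from −0.0998 to −0.0119.

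Col1a1, the main chain of type I collagen, had signals of 531.7, 233.9, 301.8 and 284.9 in the intact PH libraries. At 14 days they ran from 291.1 to 467.7 with a median of 358.9, and at 4 months from 251.5 to 440.8 with a median of 332.2. Both OVX groups lay within the range of the intact libraries. In POA the intact libraries had 382.4, 200.2, 256.4, 538.1 and 253.5. The 14-day group ran from 248.6 to 698.9 (median 365.2), the highest being library 6, and the 4-month group from 249.1 to 432.7 (median 323.5), so all 3 groups overlapped.

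Col1a2, its partner in the type I helix, had 1012, 695.9, 813.3 and 1158 in intact PH. It ran from 594.1 to 1021 at 14 days (median 872.4) and from 660.1 to 1099 at 4 months (median 871.3), again overlapping. In intact POA it had 963, 718.8, 748.4, 1243 and 738.2. The 14-day group ran from 602.9 to 1819 (median 784.4) with library 6 highest, and the 4-month group from 718 to 1078 (median 795.4).

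Col3a1 showed opposite differences in the 2 batches that the labels give, without saying which step was split. In PH the intact libraries had 163.7 and 187.9 in batch 1, and 182.7 and 267 in batch 2. At 14 days the batch 1 libraries had 292.2, 419.6 and 334.7, all above the intact ones, and the batch 2 libraries had 120, 128.7 and 137.1, all below them. Over both batches the 14-day group therefore ran from 120 to 419.6, on both sides of the intact range. Such full separation in opposite directions within the batches was seen for 2 of 43 chains (4.65%; Col3a1 and Col4a6, singled out after their values were seen) against 2.12% of all genes. At 4 months Col3a1 ran from 167.5 to 412.5 (median 200.7), overlapping the intact libraries. In POA the intact values were 217.2, 205.9, 118.2, 343.7 and 233.1, the 14-day group ran from 129.7 to 355.8 (median 245) and the 4-month group from 118.5 to 328.3 (median 164.9).

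**Figure D3:**
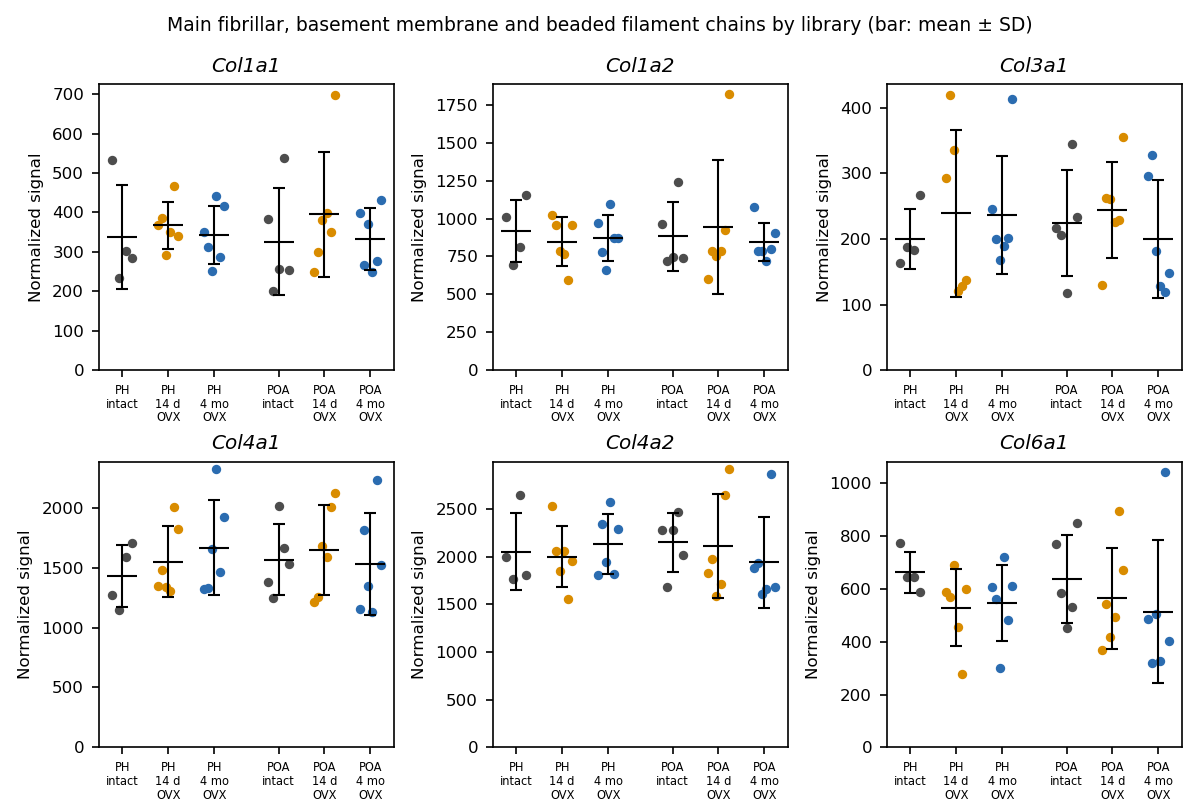
Normalized signal of Col1a1, Col1a2, Col3a1, Col4a1, Col4a2 and Col6a1 in each library (points) by region and group, with the mean and SD (bars). The groups overlap in all 6 panels, and the highest Col1a1 (698.9) and Col1a2 (1819) points belong to 1 POA library of the 14-day group.

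Among the remaining fibrillar chains, Col24a1, a chain of developing bone, had the smallest P in POA at 14 days. Its intact POA signals were 92.24, 92.54, 102.9, 118.7 and 156.4, and the 14-day group ran from 107.9 to 218.1 with a median of 140.1. The groups overlapped, and the log2 fold change was 0.42 (SE 0.171, adjusted P = 0.8 by limma). Col11a2, a chain of cartilage fibrils, had 770.3, 747.6, 1009 and 899.3 in intact PH and ran from 312.7 to 820.9 at 14 days (median 738.4), with library 5 lowest. Its log2 fold change was −0.25 (SE 0.132, adjusted P = 1 by limma). At 4 months it ran from 749.5 to 1033 (median 843.1). Between 4 months and 14 days in PH its log2 fold change was 0.23 (SE 0.122, adjusted P = 1 by limma). It was 0.14 without the 4-month library numbered 3, and with batch in place of SV1, or no covariate, it was 0.46 and the 14-day value −0.42. Col5a1, which nucleates type I fibrils, had 239.2, 172.3, 221 and 142.3 in intact PH and ran from 137.4 to 424.1 at 14 days, with a median of 246.6. In POA its 14-day group ran from 114.5 to 488.9 with a median of 167.4, against 323.6, 218.9, 228.7, 284.1 and 198.5 in intact libraries.

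The 6 basement membrane chains all had fitted differences above 0 in PH at 14 days, though none met even an unadjusted P of 0.05. Their log2 fold changes ran from 0.03 to 0.25. The direction was not uniform without SV1. Plain group means of log2 signal were below intact for Col4a2 (10.951 against 10.9839) and Col4a6 (6.7153 against 6.7834), and above it for the others. At 4 months 5 of 6 fitted differences were above 0 in PH, and in POA 4 of 6 at 14 days and 3 of 6 at 4 months. Between 4 months and 14 days in POA all 6 were below 0, where 48.9% of all genes were above 0. Their median was −0.11, again with none at an unadjusted P below 0.05. Library 6 was the highest of the 14-day POA group for Col4a1, Col4a2, Col4a4, Col4a5 and Col4a6. How many of the 6 stay below 0 without that library is not given here.

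Col4a1 had 1275, 1150, 1589 and 1701 in intact PH, ran from 1307 to 2006 at 14 days (median 1413) and from 1318 to 2322 at 4 months (median 1556). In intact POA it had 1380, 1246, 2012, 1662 and 1527, and ran from 1216 to 2126 at 14 days (median 1634) and from 1131 to 2231 at 4 months (median 1431). The groups overlapped in both regions.

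Col4a2 had 1991, 1769, 2643 and 1807 in intact PH, ran from 1551 to 2531 at 14 days (median 2008) and from 1812 to 2573 at 4 months (median 2119). In intact POA it had 2282, 1686, 2284, 2473 and 2018. It ran from 1589 to 2922 at 14 days (median 1904) and from 1613 to 2870 at 4 months (median 1782). Both chains are among the most evenly expressed of the family, with a highest to lowest ratio over the 33 libraries of 2.05 for Col4a1 and 1.88 for Col4a2. The 95% interval of the 4-month effect on Col4a2 ran from −0.22 to 0.31 on the log2 scale in PH and from −0.43 to 0.21 in POA.

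Col4a3, a chain of the kidney-type type IV network, lay close above the floor. It had 75.14, 82.26, 61.53 and 91.57 in intact PH and ran from 66 to 127.3 at 4 months (median 109.2). In POA the intact libraries had 107.5, 129, 71.27, 148.4 and 96.7 and the 4-month group ran from 55.47 to 144.3 (median 80.72). The groups overlapped in both regions.

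Among the beaded filament chains, Col6a4 had the smallest P of any collagen gene. Its PH signals were 92.91, 136.1, 100.7 and 68.45 in intact libraries. They ran from 99.03 to 210.8 at 14 days with a median of 172.9, and from 85.92 to 172.8 at 4 months with a median of 110.7. At 14 days 5 of the 6 libraries were above all intact ones, and library 5 was not. The log2 fold change at 14 days was 0.85 (SE 0.213, adjusted P = 1 by limma), a fold of 1.8 with a 95% interval of 1.32 to 2.46. From 14 days to 4 months it fell by 0.61 (SE 0.197, adjusted P = 1). In POA the intact libraries had 127.1, 179.9, 160.3, 92.87 and 86.7, and the 14-day group, from 82 to 178.8, lay within that range but for 1 library below it.

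Col6a1, the constant chain of type VI, had 771.7, 645.1, 643 and 588.4 in intact PH. It ran from 275.9 to 688.7 at 14 days (median 576.8) and from 301 to 718.2 at 4 months (median 582.6). In POA the intact values were 769.2, 584.4, 450.1, 529.2 and 846.6, and the groups ran from 369.7 to 892.2 (median 516.4) and from 319 to 1040 (median 444.3). All groups overlapped, with medians below intact in each.

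Col6a3, the large variable chain of type VI, ran from 211.9 to 628.1 at 14 days in POA (median 429.8) and from 367.2 to 1360 at 4 months (median 632.3). The intact POA values were 721.5, 442.6, 813.7, 597.9 and 425. The difference between the 2 times was 0.70 on the log2 scale (SE 0.295, adjusted P = 0.964 by limma), with overlapping groups. Col6a6, an alternative chain near the floor, ran from 77.24 to 120.7 at 14 days in POA against 74.42, 65.29, 81.67, 89.2 and 84.2 in intact libraries. Its log2 fold change was 0.29 (SE 0.146, adjusted P = 0.816 by limma). Within each batch all 14-day libraries were above the intact ones, and it was the 1 of 43 chains separated in the same direction in both batches here, against 1.71% of all genes.

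Of the FACIT chains, Col19a1 was the 1 collagen gene whose OVX and intact libraries did not overlap. Col19a1 is a rare collagen of basement membrane zones, also made by neurons. In PH it had 174, 197.4, 145.9 and 157.6 in intact libraries and 205.9, 213.2, 246.2, 207.5, 200 and 250 at 4 months, all 6 above all 4. The 14-day group, from 150.4 to 229 with a median of 193.2, lay between and overlapped both. Against intact its 4-month signal differed by 0.40 on the log2 scale (SE 0.133, adjusted P = 0.622 by limma), and 0.551% of all genes were likewise higher without overlap. No other chain was separated from intact in either direction, in comparisons where 0.278% of all genes were higher and 0.296% lower without overlap in PH at 14 days, 0.392% lower in PH at 4 months, 0.263% higher and 0.145% lower in POA at 14 days, and 0.413% higher and 0.253% lower in POA at 4 months. Full separation over both batches fixes the outcome within each batch, so the split by batch is no second support. Col19a1 was the 1 of 43 chains separated in the same direction within each batch in PH at 4 months, against 2.57% of all genes. In POA it had 202.6, 215, 217.3, 194.3 and 215 in intact libraries and ran from 124.4 to 224.4 at 4 months, with a median of 167.4.

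Col14a1, a FACIT of fibril surfaces, had 126.5, 92.45, 110.2, 97.57 and 95.77 in intact POA. It ran from 96.67 to 150.7 at 14 days (median 129.3) and from 113.3 to 153.6 at 4 months (median 123.7). The log2 fold changes were 0.28 (SE 0.128, adjusted P = 0.807) and 0.27 (SE 0.128, adjusted P = 0.576) by limma, and both comparisons used the same intact libraries. Col9a2, of the type IX coat of cartilage fibrils, had 547.8, 443.7, 767.1, 777.8 and 666.5 in intact POA and ran from 534.3 to 872.5 at 4 months (median 713.2), with a log2 fold change of 0.27 (SE 0.117, adjusted P = 0.527). The ranges of its groups overlapped. Its partner Col9a1 ran from 77.12 to 117.4 at 14 days in POA (median 85.6) and from 83.1 to 133.2 at 4 months (median 111.7).

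Col20a1, another FACIT, had 123.3, 130.9, 144.5, 132.3 and 116 in intact POA and ran from 64.3 to 149.7 at 4 months, with a median of 96.75. At 4 months 5 of the 6 libraries were below all intact ones. The log2 fold change was −0.39 (SE 0.187, adjusted P = 0.593 by limma). Against 14 days it was −0.45 (SE 0.176, adjusted P = 0.919), and −0.30 without the 14-day library numbered 6. Col12a1, a FACIT of type I fibrils, had 552.6, 561.4, 514.7 and 418.4 in intact PH and ran from 323.1 to 554.7 at 4 months with a median of 387.6. Its log2 fold change was −0.30 (SE 0.143, adjusted P = 0.814).

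**Figure D4:**
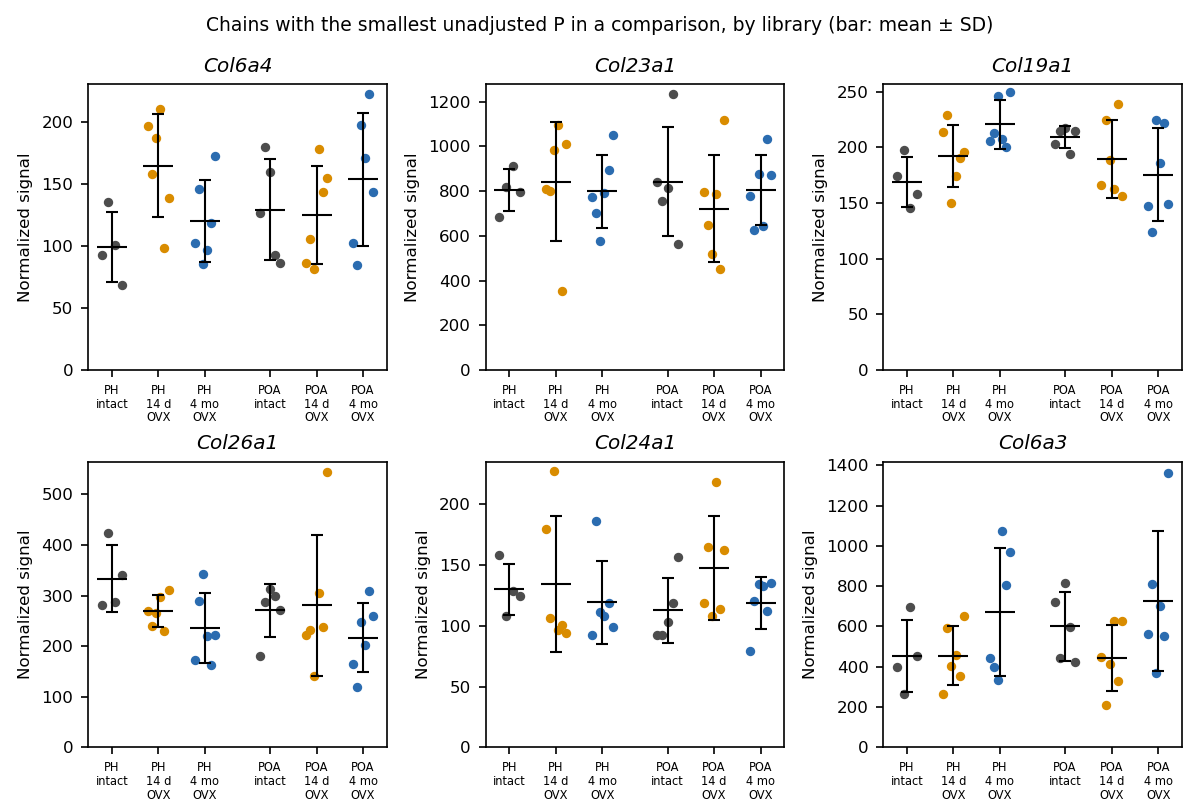
Normalized signal of Col6a4, Col23a1, Col19a1, Col26a1, Col24a1 and Col6a3 in each library (points) by region and group, with the mean and SD (bars). In PH all 6 Col19a1 points at 4 months (200 to 250) lie above the 4 intact points (145.9 to 197.4), and the other panels show overlapping groups.

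Among the transmembrane and other chains, Col23a1 had 684.6, 820.5, 912.9 and 797.7 in intact PH. The 14-day group ran from 353 (library 5) to 1097 with a median of 896.9, and the 4-month group from 577.8 to 1053 with a median of 782.9. The fitted difference at 14 days, 0.23 (SE 0.0946, adjusted P = 1 by limma), rested on SV1. With batch in its place, or with no covariate, it was −0.01. The difference of 4 months from 14 days was −0.32 (SE 0.0872, adjusted P = 0.798), and −0.01 with batch in place of SV1. Col26a1, a secreted chain, had 281.2, 423.8, 287.8 and 340.3 in intact PH and ran from 163.2 to 342.6 at 4 months (median 221.7). At 4 months 4 of the 6 libraries were below all intact ones. The log2 fold change was −0.54 (SE 0.186, adjusted P = 0.639 by limma). The 2 multiplexins and the neuronal Col25a1 met no unadjusted threshold in any of these comparisons.

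The effect of OVX on collagen chains was also compared between PH and POA, in 1 fit of all 33 libraries. At 14 days 0 of 44 chains were called, against 0.00435% of 22978 genes, and at 4 months 0 of 44 against 0.0087%. At an unadjusted P below 0.05 there was 1 chain at 14 days (2.27%, against 3.06% of all genes) and 2 at 4 months (4.55%, against 3.68%). Col6a4 differed by 0.85 on the log2 scale at 14 days (SE 0.345), higher in PH. Col5a1 differed by 0.86 (SE 0.453) and Col4a3 by 0.61 (SE 0.357) at the same time. At 4 months Col19a1 differed by 0.68 (SE 0.205), Col4a3 by 0.78 (SE 0.358) and Col9a1 by −0.36 (SE 0.222). The adjusted P was 1 by limma for each of these 6 differences.

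Chains of 1 collagen type were correlated across libraries in some pairs, and in others no correlation passed the test. For 12 pairs of chains known to assemble together or to share a promoter region, the log2 values were taken as deviations from the mean of their group and batch, and correlated over the 16 PH and 17 POA libraries, giving 24 relations. Of these 19 were positive, and 2 had a Benjamini-Hochberg adjusted permutation P below 0.05 over the 24, with labels permuted within group and batch. In POA Col1a1 and Col1a2 had Pearson's r = 0.858 (permutation p = 0.00164, adjusted p = 0.0197) and Spearman's rho = 0.846 (permutation p = 0.00118, adjusted p = 0.015). Among 21328 genes, 10 had a higher r with Col1a1 than Col1a2 did. Without the 2 libraries farthest from the median r was 0.781 (permutation p = 0.0423). Without library 6 of the 14-day group it was 0.848 (permutation p = 0.00468). Within batch 1 it was 0.782 (permutation p = 0.0977) and within batch 2 0.896 (permutation p = 0.0236). The p-values of these checks were not adjusted over the 24 relations. In PH the same pair had r = 0.418 (permutation p = 0.295, adjusted p = 0.442), with 0.901 in batch 1 and −0.26 in batch 2. The difference between the regions was not tested.

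The other pair that passed was Col8a1 with Col8a2 in POA. The type VIII chains form short-chain networks in vessels and eye membranes. The libraries fell into 2 clusters by the markers of choroid plexus, the tissue that secretes cerebrospinal fluid, so no value over all libraries is given. The chains followed this split only in part. Col8a2 ran from 250 to 390 with lower markers and from 186 to 818 with higher ones in PH. In POA it ran from 272 to 413 and from 495 to 1120. Within the 7 POA libraries with higher choroid plexus markers r between the 2 chains was 0.551 (exact permutation p = 0.195, adjusted p = 0.346), and within the 10 with lower markers −0.54 (permutation p = 0.108, adjusted p = 0.288). In PH the values were 0.121 and −0.0546 in 7 and 9 libraries (exact permutation p = 0.653 and 0.882, adjusted p = 0.804 and 0.941).

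The head-to-head type IV pair, whose shared promoter region is printed above, did not pass in either region. Col4a1 and Col4a2 had r = 0.0457 in PH (permutation p = 0.887, adjusted p = 0.895) and 0.599 in POA (permutation p = 0.0707, adjusted p = 0.189), the latter with −0.0459 in batch 1 and 0.845 in batch 2. With values centred on group only, the POA pair did pass, with r = 0.706 (adjusted permutation p = 0.0311) and rho = 0.598 (adjusted permutation p = 0.153). The second head-to-head pair, Col4a3 and Col4a4, had r = −0.0516 in PH and 0.0234 in POA, with adjusted permutation p-values of 0.887 and 0.895. Col6a1 with Col6a2 had r = 0.824 in PH (adjusted permutation p = 0.0993) and 0.51 in POA (0.216). Col6a1 with Col6a3 had r = 0.589 in PH (adjusted permutation p = 0.0935) and −0.646 in POA (0.12), opposite signs that were not tested against each other. Col1a1 with Col3a1, which co-assemble in fibrils, had r = 0.124 in PH and 0.56 in POA, with adjusted permutation p-values of 0.848 and 0.184.

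Markers of the tissues that make collagen varied between libraries in the same way as some chains. In bulk RNA, fewer cells of a type and less RNA per cell cannot be told apart. The 15 markers of fibroblasts and leptomeninges (14 of them at 2 times the floor or more in all 33 libraries) had a mean log2 signal of 7.73 to 9.22. This range was 7.96 to 9.01 in intact PH, 8.04 to 8.7 at 14 days and 8 to 8.82 at 4 months, and 7.73 to 8.79, 7.81 to 9.22 and 7.89 to 8.84 in POA. None of the 15 was called in any comparison, and 0 genes were called in any of the 14 marker lists. Of these, 3 (Dcn, Lum and Ogn) also stand in the list of collagen-binding proteins counted at the end and 1 (Pcolce) in that of procollagen processing.

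Of the type I chains, Col1a2 passed with these markers in POA and Col1a1 did not. Col1a2 had r = 0.918 with their mean over 17 libraries (permutation p = 0.00029, adjusted p = 0.0481 over 332 relations of chains with 4 marker lists) and rho = 0.907 (permutation p = 0.00012, adjusted p = 0.0199). Pearson's r was 0.881 without the 2 farthest libraries, 0.93 without library 6 of the 14-day group, and 0.869 and 0.946 within the batches. Without library 6 its permutation p was 0.00107, above the 0.00029 over all libraries, and no adjusted p was computed there. Col1a1 had r = 0.902 (permutation p = 0.00132, adjusted p = 0.146) and Col3a1 r = 0.733 (adjusted permutation p = 0.198). In PH Col1a2 had r = 0.742 (permutation p = 0.00633, adjusted p = 0.21), Col1a1 0.795 (adjusted p = 0.51) and Col3a1 0.0233 (adjusted p = 0.989). These 332 relations were chosen after the data had been seen, and the fits were repeated with the means of leptomeningeal, endothelial and choroid plexus markers as covariates, where 0 chains were called in any of the 8 comparisons.

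**Figure D5:**
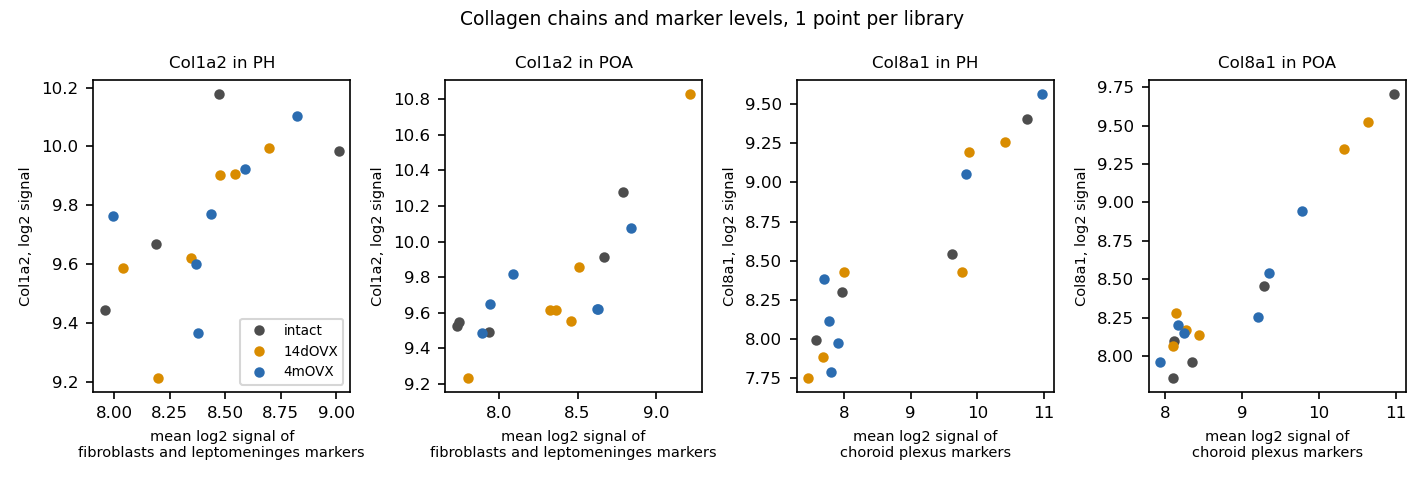
Log2 signal of Col1a2 against the mean log2 signal of fibroblast and leptomeningeal markers, and of Col8a1 against that of choroid plexus markers, with 1 point per library coloured by group, in PH and POA. In POA the 14-day library at 9.22 on the marker axis has the highest Col1a2, and the choroid plexus markers form a lower and a higher cluster of libraries in both regions.

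No basement membrane chain passed with the mean of 12 endothelial markers in either region, all 12 at 2 times the floor or more in every library. In POA Col4a1 had r = 0.782 and Col4a2 r = 0.777 (adjusted permutation p = 0.269 and 0.197), and the other 4 type IV chains ran from r = 0.134 for Col4a6 to 0.527 for Col4a5 (adjusted permutation p = 0.974 and 0.633). In PH the 6 chains ran from r = −0.114 for Col4a3 to 0.391 for Col4a6 (adjusted permutation p = 0.986 and 0.834). The 1 chain that passed with this list was Col5a1 in POA, with r = 0.867 (permutation p = 9e-05, adjusted p = 0.0299) and rho = 0.819 (permutation p = 9e-05, adjusted p = 0.0199). Pearson's r was 0.744 without the 2 farthest libraries and 0.802 without library 6 of the 14-day group (permutation p = 0.00042, not adjusted). Within batch 1 it was 0.426 and within batch 2 0.972. No chain passed with pericyte or vascular smooth muscle markers, over 42 chains in PH and 41 in POA. The endothelial markers themselves ran from 9.54 to 9.73 in intact PH, 9.61 to 10.04 at 14 days and 9.74 to 10.1 at 4 months, and their median log2 fold change at 4 months was 0.24 in PH and 0.13 in POA, with none called. At 4 months in PH 5 of the 12 were higher and 0 lower at an unadjusted P below 0.05, against 2.95% and 3.11% of all genes. In POA 3 were higher and 1 lower, against 4.09% and 4.41%. The smallest P in PH were those of the VEGF receptor genes Kdr (0.59, SE 0.129, adjusted P = 0.162 by limma) and Flt1 (0.59, SE 0.136, adjusted P = 0.225). In POA Flt1 had 0.41 (SE 0.0946, adjusted P = 0.146) and Kdr 0.65 (SE 0.165, adjusted P = 0.208). The part of the endothelial markers in the collagen values was not tested beyond the correlations and the covariate fit given here.

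Col8a1 was correlated with the choroid plexus markers among the libraries with higher levels of them, and did not pass among the others. Of the 9 markers 8 were at 2 times the floor or more in all 33 libraries. Their mean log2 signal was 7.47 to 7.99 in 9 PH libraries and 9.62 to 11 in the other 7, and 7.94 to 8.44 in 10 POA libraries and 9.21 to 11 in 7. The higher libraries came from all 3 groups of both regions. Among the 7 higher libraries Col8a1 ran from 344 to 758 in PH, with r = 0.843 (exact permutation p = 0.00119, adjusted p = 0.00952 over 16 relations) and rho = 0.964 (exact permutation p = 0.00278). In POA it ran from 306 to 834, with r = 0.989 (exact permutation p = 0.000397, adjusted p = 0.00635) and rho = 1. These permutations ran over all libraries of a cluster, without regard to group and batch, unlike those of the other correlations. In the higher PH cluster the batch 1 libraries had marker means of 10.41 to 10.97 and Col8a1 signals of 613.5 to 757.7. Those of batch 2 were all lower, with 9.62 to 9.88 and 344 to 587.2. The p-value of that cluster therefore cannot tell marker level from batch. In the lower libraries r was 0.575 in PH (exact permutation p = 0.105, adjusted p = 0.288) and 0.249 in POA (permutation p = 0.491, adjusted p = 0.654). Without the 2 farthest libraries the higher PH cluster had r = 0.709 and the higher POA cluster 0.987. Col8a2 and Col17a1 did not pass in any cluster.

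The machinery that makes, cuts and binds collagen was likewise without calls. The counts cover 7 lists: 21 genes of chain modification and secretion, 15 of procollagen processing and cross-linking, 19 of collagen breakdown and its inhibitors, 12 receptors, 16 collagen-binding matrix proteins, 16 laminins and other basement membrane partners, and 13 of TGF-beta signalling, the main inducer of fibrillar collagen. In each of the 8 comparisons 0 genes of each list were called higher and 0 lower. At 14 days each list had at most 1 gene higher and 1 lower at an unadjusted P below 0.05 in either region. Of all genes tested, 1.56% were higher and 1.48% lower in PH at 14 days, and 2.83% and 3.31% in POA. At 4 months 2.95% of all genes tested were higher at that threshold and 3.11% lower in PH, and 4.09% and 4.41% in POA. The genes named next had the smallest P of their list.

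In PH at 4 months most of the genes at this threshold were above 0. Of 21 modification genes 1 met the unadjusted threshold above 0 and 0 below, Crtap, a prolyl 3-hydroxylase partner (log2 fold change 0.43, SE 0.152, adjusted P = 0.647 by limma). Of 13 processing genes 1 met it above 0, the tolloid-like protease gene Tll2 (0.33, SE 0.151, adjusted P = 0.802). Of 15 breakdown genes 1 met it on each side, Mmp2, a gelatinase, at 0.32 (SE 0.127, adjusted P = 0.712) and Timp3, an inhibitor bound to matrix, at −0.20 (SE 0.0705, adjusted P = 0.646). Of 11 receptors 1 met it above 0, the endothelial receptor gene Cd93 (0.51, SE 0.188, adjusted P = 0.679). Of 16 collagen-binding proteins 3 met it above 0, led by Fn1, fibronectin (0.42, SE 0.17, adjusted P = 0.73). Of 16 basement membrane partners 2 met it above 0, the laminin gene Lamc3 (0.47, SE 0.21, adjusted P = 0.795) and Nid2, a nidogen, which links laminin to type IV collagen (0.60, SE 0.27, adjusted P = 0.796). Of 13 TGF-beta genes 2 met it above 0, the ligand gene Tgfb1 (0.38, SE 0.141, adjusted P = 0.68) and the receptor gene Tgfbr2 (0.28, SE 0.111, adjusted P = 0.73).

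In POA at 4 months genes of these lists met the threshold on both sides. Of 16 basement membrane partners 2 met the unadjusted threshold above 0, the laminin genes Lama2 (0.30, SE 0.0817, adjusted P = 0.221 by limma) and Lama5 (0.48, SE 0.205, adjusted P = 0.522). Of 15 breakdown genes 0 met it above 0 and 2 below, the membrane-type protease genes Mmp24 (−0.22, SE 0.0652, adjusted P = 0.289) and Mmp15 (−0.15, SE 0.0631, adjusted P = 0.499). Of 11 receptors 3 met it above 0 and 1 below, the last being Adgrg1, an adhesion receptor (−0.23, SE 0.0768, adjusted P = 0.361). Of 21 modification genes 1 met it below 0, the coat protein gene Sec23a (−0.14, SE 0.0513, adjusted P = 0.416). The collagen-binding list had 1 gene above 0, Tnxb, a tenascin (0.29, SE 0.139, adjusted P = 0.586), the TGF-beta list 1, Tgfbr2 (0.26, SE 0.112, adjusted P = 0.522), and the 12 processing genes tested none on either side. The medians of the collagen-binding list were 0.0855 in PH and 0.1901 in POA at 4 months, and those of the basement membrane partners 0.1427 and 0.1124, beside −0.0094 and −0.0106 for all genes. The receptors had 0.1016 in PH and 0.0738 in POA, and the TGF-beta list 0.0564 and −0.0115. The medians were 0.0024 and −0.0347 for modification, 0.0088 and −0.0396 for processing, and −0.0078 and −0.0198 for breakdown.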

How the data were processed

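Total RNA from dissected, flash-frozen tissue was sequenced as stranded mRNA libraries. The labels put the libraries in 2 batches, without saying which step these divide. Per the labels, the authors used kallisto and DESeq2 with the mouse build mm39. The deposited table holds a normalized signal, which is not a read count. Its low genes pile up at 22.1 (the floor, the mode of the gene medians), with 0.118% of values more than 10% below it, and the authors' step behind it is not given in the sources used here. Values ran from 9.94 to 3687693 and summed to 44500000 to 72900000 per library, and 1259 rows without a gene name were left out. Depth is unknown, so no counting error is given.

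Signals were log2 transformed without a pseudocount. Genes with at least 2 times the floor (44.3) in 4 PH or 5 POA libraries were tested with limma 3.58.1 in R 4.3.3 (trended, robust), per region, with the 3 groups and 1 surrogate variable (SV1, 5 rounds of reweighting on all genes) after the study's design, and Benjamini-Hochberg adjustment over all genes tested. The difference between regions was tested in 1 fit of 33 libraries. The planned count model was not used because the values are no counts. Correlations used deviations from group and batch means with 100000 two-sided permutations within group and batch, and exact or 100000 permutations over the libraries of each choroid plexus cluster, without regard to group and batch (Python 3.11.15, scipy 1.17.1). The fitting code was tested on simulated data. No 2 libraries were identical.

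Chains were named in full where they were among the 3 smallest P of a comparison, with Col1a1, Col1a2, Col3a1, Col4a1, Col4a2 and Col6a1 always shown. The members, the 7 pathway and 14 marker lists and these rules were chosen with earlier results of these data known. Alternatives were batch in place of or beside SV1, no covariate, a replicate block, 4 times the floor or no filter, no trended or robust estimates, only the 2 groups compared, a pseudocount of 20, the floor subtracted with 5 added, each library left out in turn, and, chosen after seeing the data, marker means added to SV1. Gene positions come from GENCODE on GRCm39 and promoter windows from RefSeq on GRCm38.p6.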

Additional observations from a re-analysis of the deposited data

Results flagged for a closer look

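For the 21 chains described above, the highest and lowest library of each group was compared with the spread of that group (Dixon's test at the 95% level) in 126 groups. A library stood far from the others in 8 of them. Chance alone gives about 1 in 20. Over all 44 chains it was 15 of 264 groups, or 5.68%, and 5 of these 15 were the 14-day PH library numbered 5.

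In that library Col23a1 had a signal of 353 against 798.9 in the nearest of the other 5, Col11a2 had 312.7 against 602.8, and Col9a2 had 239.7 against 550.1. Col4a3 lay on the other side, with 262.1 against 106.1. In POA at 4 months, library 5 had a Col4a2 signal of 2870 where the next was 1931. Col24a1 was set apart in 2 groups, with 186.1 in PH library 2 at 4 months (next 118.9) and 79.51 in POA library 1 at 4 months (next 111.8). The intact POA library 1 had a Col26a1 signal of 180.5, below 272.3 in the nearest other. No chain had OVX effects of opposite direction in every library of PH and POA, and no difference between the regions passed the test.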

How the results depend on the processing

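No collagen chain was called in any of the 8 comparisons under any alternative, including each library left out in turn (16 fits in PH, 17 in POA and 33 for the difference between regions). The smallest adjusted P by limma under any of them was 0.218, for Col26a1 at 4 months in PH without PH 4-month replicate 3. The median log2 fold change in POA at 14 days was 0.0746 and became −0.0777 without POA 14-day replicate 6. Its range over all single libraries left out was −0.0777 to 0.1288. The other medians also crossed 0 in some fits, by less than the spread between libraries, except that between 4 months and 14 days in POA (−0.1482 to −0.0119 over single libraries left out); in PH at 14 days it was −0.0268 with batch in place of SV1 or no covariate. Col23a1 in PH at 14 days turned from 0.2279 to −0.0113 with batch in place of SV1 and to −0.0113 with no covariate. Other named values that moved by over 1.5 times were Col11a2 in PH (−0.2463 to −0.4207 at 14 days and 0.2339 to 0.4569 between the times with batch in place of SV1 or no covariate, and 0.1415 without PH 4-month replicate 3), Col23a1 in PH between the times (−0.3199 to −0.0142 with batch in place of SV1 or no covariate), Col14a1 in POA at 4 months (0.2734 to 0.5144 with marker means), Col20a1 in POA at 4 months (−0.3874 to −0.6095 with marker means and −0.2284 with SV1 and batch), Col9a2 in POA at 4 months (0.2694 to 0.1715 with no covariate) and the regional difference of Col9a1 at 4 months (−0.361 to −0.2289 without POA intact replicate 1). The count of correlated chain pairs was 2 and became 5 when values were centred on group only, the pairs gained being Col4a1 with Col4a2 and Col11a1 with Col11a2 in POA and Col6a1 with Col6a2 in PH. For the 15 main results, 415 alternatives kept direction and side of the threshold, or moved by less than the spread, and the 2 exceptions are the POA median and the pair count given here. The cause of these shifts was not tested.

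Replicate numbers were compared between the groups of a region, on deviations from group means that were not centred on batch. Of same-numbered libraries, 9 of 14 PH pairs and 14 of 16 POA pairs had a correlation over 0.1 (from −0.181 to 0.392 and −0.308 to 0.39). In PH 6 of 16 libraries and in POA 5 of 17 correlated best with their own number. The numbers largely go with batch, so these values cannot show whether they pair libraries. Correlation between PH and POA libraries of the same number was not examined. With the replicate block, 0 chains were called in each comparison and the median in POA at 14 days was 0.0903. Within a region, with 4 to 6 libraries a group, the median standard error for the chains was near 0.2 on the log2 scale. Fitted differences of up to 0.852 (Col6a4 in PH at 14 days) were not called there. For the difference between regions that median was 0.316 at 14 days and 0.317 at 4 months, and up to 0.8553 (Col5a1 at 14 days) was not called.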
